A study of Mus musculus with 12 samples.

Results

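Long noncoding RNAs (lncRNAs) that run against a protein-coding gene carried 1763 of the 11628 m6A peaks that the authors called on lncRNAs in C17.2 cells, a mouse line of immortalised neural stem cells (NSCs). The members were chosen by the annotation in the lncRNA peak lists, as peaks whose transcript was classed as natural antisense to a coding gene or as bidirectional with one. Natural antisense transcripts gave 1379 of these peaks and bidirectional transcripts 384. Peaks that shared at least 1 base between libraries were merged into 711 regions, 553 natural antisense and 158 bidirectional, on 618 transcripts with 632 associated coding genes, called partners here. The label of each transcript came from the deposited annotation and was checked against the listed coordinates of both genes: every bidirectional lncRNA started on the opposite strand from its partner, and the 5′ ends lay 12 to 907 bases apart, with a median of 135 over 133 transcripts. The antisense lncRNAs started inside the partner or past its end, and 182 of 485 (37.5%) had a 5′ end within 1000 bases of the partner's 5′ end. No region held peaks of both classes. Of the 462 transcripts with a gene model, 70 (15.2%) were typed as retained intron, 11 as nonsense-mediated decay and 4 as protein-coding. Some members were thus transcripts of coding genes.

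MeRIP-seq was used, which pulls down fragmented RNA with an antibody to N6-methyladenosine (m6A) and sequences it next to the input. All cells were C17.2 with the genotype given as WT, a line passaged in serum-containing medium, and no other allele or agent is given for either group. The control group stayed in standard oxygen, and the hypoxia/reoxygenation (H/R) group spent 12 h in 5% O2 and then 48 h in standard oxygen, a culture model of ischemia and reperfusion. Each group had 3 immunoprecipitates and 3 inputs, and the peak lists were named A, B and C within a group. No source links the letters to replicate numbers or states that replicates were separate cultures, so p-values here measure the spread among these libraries, which may be technical. The lists held no read counts. The paper supplies read and mapping statistics, which were not used here, so depth was not compared between libraries. Of 10 NSC markers, Nes, Sox2 and Sox9 had an mRNA peak in all 6 libraries and Vim, Msi2, Pax6, Fabp7 and Prom1 in none, while no marker of neurons, astrocytes, oligodendrocytes or microglia was called in all 6. A missing peak does not show that a gene was silent.

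A natural antisense transcript is copied from the strand opposite a gene and overlaps it. It can pair with the gene's mRNA, or its transcription can alter that of the gene beside it. A bidirectional lncRNA starts close to a coding gene's promoter and runs the other way, so both RNAs share a control region without sharing exons. In both kinds m6A is written by the METTL3 and METTL14 complex at adenosines in the sequence context called DRACH, spelled as A, G or T, then A or G, then A, then C, then A, C or T. Because DRACH is not its own reverse complement, the number of matches on each strand can be compared.

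The sequences below show that context in 8 regions that the results turn on. Each is the central 140 bases of the stretch shared by the libraries that called it, read 5′ to 3′ on the lncRNA strand from the mm10 genome, with DRACH matches in capitals. The first pair are antisense peaks over exons of the partner, called in all 6 libraries.
AK154190 / Keap1, chr9:21231349-21231488, plus strand: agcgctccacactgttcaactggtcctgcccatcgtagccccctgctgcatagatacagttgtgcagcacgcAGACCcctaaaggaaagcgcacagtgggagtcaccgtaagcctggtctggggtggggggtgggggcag
Gm12992 / Srsf4, chr4:131900728-131900867, minus strand: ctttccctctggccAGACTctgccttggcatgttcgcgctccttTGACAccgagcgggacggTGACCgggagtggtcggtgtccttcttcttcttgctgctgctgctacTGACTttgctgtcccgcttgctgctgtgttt
The next pair are antisense peaks that touched no exon of a protein-coding transcript, the first called in all 6 libraries and the second in the 3 H/R libraries.
2210015D19Rik / Urgcp, chr11:5780967-5781106, plus strand: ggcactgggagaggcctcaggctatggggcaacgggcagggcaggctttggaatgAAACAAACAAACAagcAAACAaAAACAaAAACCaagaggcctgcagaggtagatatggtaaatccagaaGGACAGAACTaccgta
AK134203 / Rnf26, chr9:44121241-44121380, plus strand: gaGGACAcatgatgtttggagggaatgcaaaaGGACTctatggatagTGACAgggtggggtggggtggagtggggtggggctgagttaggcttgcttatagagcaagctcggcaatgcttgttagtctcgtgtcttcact
The last 4 are bidirectional. Gm16576 and 9130206I24Rik were called in the 3 H/R libraries, Foxd2os in 5 libraries and AK020767 in the 3 control libraries.
Gm16576 / Sun2, chr15:79757089-79757228, plus strand: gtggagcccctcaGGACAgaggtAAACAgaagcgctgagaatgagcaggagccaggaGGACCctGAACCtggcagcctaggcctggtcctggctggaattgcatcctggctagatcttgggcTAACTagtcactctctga
9130206I24Rik / Foxd2, chr4:114909388-114909527, plus strand: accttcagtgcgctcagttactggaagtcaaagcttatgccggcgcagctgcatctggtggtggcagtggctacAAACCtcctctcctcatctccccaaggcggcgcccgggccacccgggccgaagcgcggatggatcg
Foxd2os / Foxd2, chr4:114920709-114920848, plus strand: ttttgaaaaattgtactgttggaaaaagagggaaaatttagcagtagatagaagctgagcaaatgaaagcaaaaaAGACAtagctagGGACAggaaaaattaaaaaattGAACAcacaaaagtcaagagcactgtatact
AK020767 / Rrp15, chr1:186749433-186749572, plus strand: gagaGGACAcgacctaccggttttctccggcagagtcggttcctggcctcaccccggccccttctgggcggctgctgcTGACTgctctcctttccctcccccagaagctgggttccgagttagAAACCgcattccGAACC
The window opposite Keap1 held 1 DRACH match on the lncRNA strand and 4 on the strand of Keap1, and the window opposite Srsf4 held 4 on each. The window of 2210015D19Rik held 8 on its own strand and 0 on the other, several of them in a run of AAAC repeats. AK134203 held 3 and 5. Among the bidirectional windows Gm16576 held 5 and 2, 9130206I24Rik 1 and 2, Foxd2os 3 and 1, and AK020767 4 and 4. A match is short and common: 98.6% of natural antisense, 98.7% of bidirectional and 97.7% of other lncRNA peaks held at least 1 on the lncRNA strand.

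Over whole peaks, the lncRNA strand was richer in DRACH than the opposite strand in antisense peaks free of coding exons and in bidirectional peaks, and no difference was detected in antisense peaks over a partner exon. Natural antisense peaks that touched no exon of a protein-coding transcript held 22.2 matches per kb on the lncRNA strand and 17.2 per kb on the other, a difference of 3.23, 3.59 and 8.60 per kb in the controls (A, B, C) and of 5.71, 4.69 and 4.32 in H/R (A, B, C). The control C value rests on 24 peaks. The difference was above 0 in every library (mean 5.02 per kb, exact sign-flip test over 6 libraries, two-sided p = 0.03125, adjusted over 12 comparisons p = 0.0469). In another setting all members, bidirectional ones included, were held to peaks with no coding exon. The 3 comparisons used below, with those of fold and length, were then run again. The same exact test there had an adjusted p = 0.0938. Peaks that overlapped a partner exon held 17.9 matches per kb on the lncRNA strand, and there the strands differed by less than the spread between libraries. The difference was -0.54, -0.11, -0.78, 0.63, -0.42 and 0.52 per kb in the same order of libraries, above 0 in 2 of 6 (mean -0.12, exact p = 0.594). The gap between both kinds of antisense peak was 5.14 per kb, with the peaks free of coding exons higher in 6 of 6 libraries (exact p = 0.03125, adjusted p = 0.0469). This split of the antisense peaks was chosen after their values had been seen. It did not cover all of them: of 1379 antisense peaks, 876 lay over a partner exon and 308 touched no coding exon. The rest were in neither set.

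Bidirectional peaks, of which 94.8% touched no coding exon, resembled the first kind. They held 22.1 matches per kb on the lncRNA strand and 17.3 on the other, and the difference ran from 3.31 per kb in control C to 5.63 in H/R C (mean 4.83, exact p = 0.03125, adjusted over 5 comparisons p = 0.03125). Peaks of intergenic lncRNAs, which have no coding partner, differed by 4.98 per kb between strands (4.56 to 5.29), and all lncRNA peaks outside the members, sense-overlapping ones included, by 2.51 per kb (2.34 to 2.69), above 0 in 6 of 6 libraries (both exact p = 0.03125, adjusted over 12 comparisons p = 0.0469). All natural antisense peaks together had a smaller difference of 0.88 per kb, 18.8 against 17.9, above 0 in 6 of 6 libraries (0.41 to 1.56, exact p = 0.03125, adjusted over 3 comparisons p = 0.03125), which fell short of the threshold in lists of equal length (0.48 per kb, exact p = 0.0938) and among peaks not also exon sense-overlapping (0.81 per kb, exact p = 0.0625). Bidirectional peaks exceeded them by 3.95 per kb (exact p = 0.03125, adjusted over 12 comparisons p = 0.0469). The core GGAC followed the same order, with a strand difference from 0.75 to 1.56 per kb in bidirectional peaks (exact p = 0.03125) and 0.06 in natural antisense peaks (-0.18 to 0.32, exact p = 0.5).

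A strand difference was also present outside the peaks. Exons not covered by a peak of that library were taken from the member lncRNAs that had a gene model, 462 of 618 transcripts. There the lncRNA strand was ahead by 1.61 per kb for antisense and 1.25 per kb for bidirectional transcripts. It was ahead in 6 of 6 libraries in both. The values inside peaks cover all member transcripts, so the sets compared next are not the same transcripts. For bidirectional lncRNAs the difference inside peaks exceeded that outside in 5 of 6 libraries, by 3.58 per kb on average, with control C at -0.19 (exact p = 0.0625, adjusted p = 0.075). For natural antisense lncRNAs it was smaller inside peaks than outside in 5 of 6 libraries, by -0.73 per kb on average (exact p = 0.0625, adjusted p = 0.075). The difference did not separate the groups: it was 1.16 per kb larger in H/R for bidirectional peaks (exact permutation p = 0.2) and 0.63 for natural antisense peaks (p = 0.3). Many regions recur in several lists, so the 6 libraries are not 6 separate draws of sequence.

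**Figure D1:**
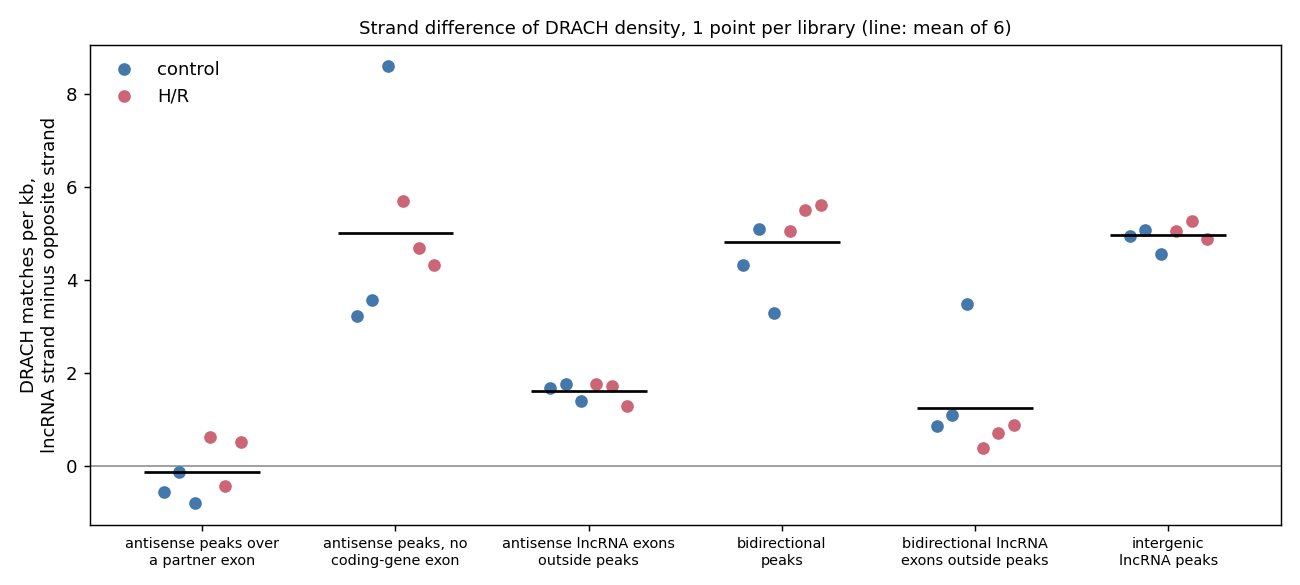
Difference in DRACH matches per kb between the lncRNA strand and the opposite strand (vertical axis) for 6 sets of sequence, with 1 point per library, blue for control and red for H/R, and a line at the mean. Antisense peaks over a partner exon lie around 0, between -0.78 and 0.63, while bidirectional peaks lie between 3.31 and 5.63 and intergenic peaks between 4.56 and 5.29.

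Most antisense peaks touched an exon of their partner, although partner exons made up 31.3% to 36.7% of the peak bases per library. An exon of the partner was overlapped by 66.1% to 72.6% of natural antisense peaks in the control lists and by 53.8% (H/R C) to 68.3% (H/R B) in the H/R lists, so that the groups overlapped (difference -7.14 percentage points, exact permutation p = 0.2), and the difference was -2.92 points without H/R C and 0.319 points with all lists held to equal length. No exon of a protein-coding transcript on either strand was touched by 17.5% ± 2.49 (SD, n = 3) of antisense peaks in control and 23.4% ± 6.44 in H/R, with H/R C highest at 30.5% (exact permutation p = 0.2). That difference of 5.88 points was 2.29 points without H/R C and turned to -2.32 points in lists of equal length. Of the 1379 antisense peaks 32.5% also carried the class exon sense-overlapping, for an exon of another coding gene on their own strand. The library kit's strand was not stated in the sources used here, so reads from the lncRNA and from the partner could not be told apart over a shared exon. Of 1339 member peaks whose transcript had a gene model, 1331 lay inside 1 exon and 1160 (86.6%) ended at an exon boundary, so that peak lengths partly measured exon lengths.

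The mRNA and lncRNA lists of a library did not overlap: 0 of 1763 member peaks and 0 of 9865 other lncRNA peaks shared a base with an mRNA peak of the same library. A peak had thus been placed in one list or the other, and overlap with a partner's peak could not be tested. Across libraries, 38 of 711 regions (5.34%) lay under an mRNA peak of another library. Of the 35 regions found in H/R alone, 0 lay under a control mRNA peak. That count covers control lists only and, over 35 regions, cannot be told from 5.34%. The partner could be counted as a gene, although placement in the lists also bears on that count. It had an mRNA peak of its own for 73.4% of bidirectional and 58.8% of natural antisense peaks. The difference of 14.7 percentage points had the same direction in 6 of 6 libraries (6.28 to 23.5, exact sign-flip p = 0.03125, adjusted over 5 comparisons p = 0.03125). Part of this difference may be built in. A partner exon lay under 63.5% of antisense peaks, and such a peak could not also count for the partner. Of bidirectional peaks 94.8% touched no coding exon. The test therefore cannot separate the kind of lncRNA from list placement. Placement could also affect the comparison of all members with other lncRNA peaks, given next. For all members the share was 61.8%, below the 70.3% of other lncRNA peaks with an associated gene in 6 of 6 libraries (difference -8.45 points, exact p = 0.03125, adjusted p = 0.03125). The nearest partner peak was a median of 7466 bases away from a natural antisense peak and 14845 from a bidirectional one, counting peaks whose partner was called. Between groups, the share of member peaks with a called partner was 58.1% ± 1.67 in control and 65.6% ± 6.20 in H/R (exact permutation p = 0.2), and the direction turned at a fold of at least 10 (-5.71 points) and in lists of equal length (-1.77 points).

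Antisense peaks were also richer in G and C than bidirectional peaks, with medians per library averaging 53.2% and 50.7%, a difference of 2.56 percentage points in the same direction in 6 of 6 libraries (exact p = 0.03125, adjusted p = 0.03125). Bidirectional peaks held the 5′ end of the lncRNA more often, in 40.7% against 31.8% of peaks (difference 8.98 points, higher in 6 of 6 libraries, exact p = 0.03125, adjusted p = 0.03125). Compared with the other lncRNA peaks, members were longer, with medians per library averaging 629 against 407 bases (exact p = 0.03125, adjusted over 3 comparisons p = 0.03125). Their median fold enrichment of immunoprecipitate over input was higher in 6 of 6 libraries. It averaged 21.5 against 19.3 over control and H/R libraries together, a difference of 2.20 (exact p = 0.03125, adjusted p = 0.03125).

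The H/R lists held more antisense and bidirectional peaks, and were longer throughout. Members numbered 222 in control A, 175 in control B and 143 in control C, against 413 in H/R A, 284 in H/R B and 526 in H/R C. The groups did not overlap, with means of 180 ± 39.7 (SD, n = 3) and 408 ± 121 (exact permutation p = 0.1, the smallest that 3 against 3 libraries allow, adjusted over 7 comparisons p = 0.14). Natural antisense peaks numbered 118 to 171 in control and 227 to 416 in H/R, and bidirectional peaks 38.7 ± 13.1 and 89.3 ± 28.4 (both exact permutation p = 0.1, adjusted p = 0.14). As a share of all lncRNA peaks, members made up 13.9%, 15.7% and 13.7% in control and 15.6%, 14.3% and 16.2% in H/R, values that overlapped (exact permutation p = 0.3). With every list held to the length of the shortest, 1047 lncRNA peaks, the members numbered 152, 163 and 143 in control and 160, 139 and 152 in H/R, and the direction turned (difference -2.33 peaks, exact permutation p = 0.8).

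**Figure D2:**
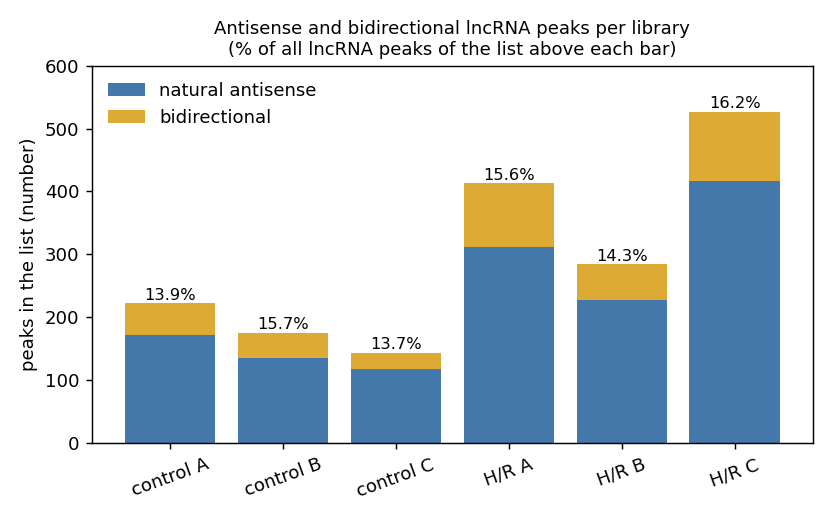
Number of natural antisense (blue) and bidirectional (yellow) m6A peaks in each of the 6 lncRNA lists (vertical axis), with their share of the list's lncRNA peaks above each bar. The H/R bars reach 284 to 526 and the control bars 143 to 222, while the shares lie between 13.7% and 16.2%.

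The median fold enrichment of members was 23.9, 36.8 and 33.0 in the control lists, all above the 9.57, 16.2 and 9.71 of the H/R lists (difference -19.4, exact permutation p = 0.1, adjusted p = 0.14). The difference was -13.2 in lists of equal length. It was not particular to members, since the median fold of other lncRNA peaks averaged 27.6 in control and 11.1 in H/R. The median length was 706 ± 9.54 bases in control and 553 ± 115 in H/R (exact permutation p = 0.1, adjusted p = 0.14), a difference of -153 bases that was -28 in lists of equal length, -47.3 at a fold of at least 10 and -96.8 without H/R C. Other lncRNA peaks were also shorter in H/R, with median lengths averaging 450 bases in control and 364 in H/R. No member peak in any list had a false discovery rate of 5% or less in the authors' column, so the lists rest on the p cutoff alone.

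Presence in the lists was patchy. Of the 711 regions 335 (47.1%) were called in 1 library, 202 of them in H/R C and 92 in H/R A. These were the longest lists, with 3243 and 2649 lncRNA peaks. The share called in 1 library was not computed over all lncRNA regions, so it cannot be called particular to members. A total of 79 regions (65 natural antisense, 14 bidirectional) were called in all 6 lists, which is 11.1% of the members against 14.0% of all merged lncRNA regions. The 35 regions called in all 3 H/R lists and no control list (27 natural antisense, 8 bidirectional) were 4.92% of the members against 5.69% of all lncRNA regions, and 1 region called in the 3 control lists and no H/R list was 0.141% against 0.159%. In all 6 lists, in H/R alone and in control alone, the members' shares were thus near those of lncRNA regions as a whole. The 35 fell to 3 in lists of equal length and to 11 at a fold enrichment of at least 10, and rose to 60 without control A and to 89 without H/R B. Any pair of control lists shared 43.9% to 48.7% of their joined regions, pairs of H/R lists 38.1% to 48.2%, and a control and an H/R list 21.1% to 52.1%.

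**Figure D3:**
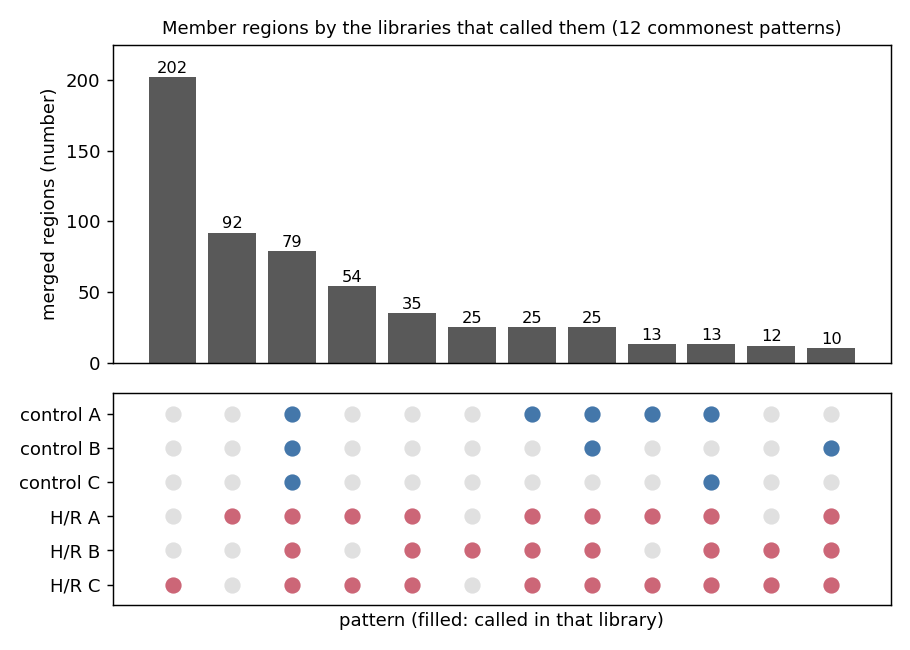
Number of merged regions (bars, vertical axis) for the 12 commonest patterns of presence, with filled points marking the libraries that called them, blue for control and red for H/R. The tallest bar, 202 regions, is H/R C alone, 79 regions were called in all 6 libraries and 35 in the 3 H/R libraries alone.

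The natural antisense regions called in H/R alone were ranked by their lowest p score, which is -10 times log10 of the caller's p. The first was 1700007J10Rik (chr11:59731478-59731628, minus strand), opposite Mprip, which encodes a scaffold for myosin phosphatase. Its folds in H/R A, B and C were low, at 4.62, 6.50 and 3.76, and Mprip itself had 4 to 6 mRNA peaks per control list and 7 to 9 per H/R list. AK134203 (chr9:44120123-44121960), whose sequence is given above and whose 5′ end lies 128 bases inside Rnf26, a ubiquitin ligase gene, had folds of 9.33, 13.7 and 11.3. Rnf26 had 1 mRNA peak in each of the 6 lists. Gm9725 (chr8:81013576-81014953), opposite the deubiquitinase gene Usp38, had folds of 6.20, 10.4 and 8.98. Thap6 (chr5:91969541-91970909), here a noncoding transcript of a coding gene, lay against the ubiquitin ligase gene Rchy1 with folds of 5.19, 8.76 and 5.23. Rchy1 had no mRNA peak in any list, and neither had Zmat3.

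Zmat3, which encodes an RNA-binding zinc finger protein, faced 4930429B21Rik (chr3:32365489-32367393), whose folds were 10.8, 18.7 and 16.2. This region overlapped a Zmat3 exon, where a peak can stand in the lncRNA or the mRNA list but not in both. BC026600 (chr17:24454865-24455634), opposite the transcription factor gene E4f1, had folds of 8.68, 11.6 and 19.1, and E4f1 had 1 mRNA peak in all 6 lists. Gm15983 (chr16:5286095-5287413), opposite Eef2kmt (also Fam86), the methyltransferase of elongation factor eEF2, had the evenest folds of the 8, at 19.3, 16.9 and 19.4. Gm15417 (chr3:89391850-89392506), opposite the zinc finger transcription factor gene Zbtb7b, had folds of 24.2, 15.1 and 10.1. Of these 8 regions, 5 overlapped an exon of the partner and 3 touched no coding exon.

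Among bidirectional regions called in H/R alone, Gm16576 (chr15:79756924-79757394) came first. It starts 162 bases from Sun2, whose protein joins the nuclear envelope to the cytoskeleton, and had folds of 10.2, 16.6 and 11.9 in the H/R lists, while Sun2 had an mRNA peak in H/R B and H/R C and in no control list. 9230114K14Rik (chr5:52194801-52194890), 135 bases from the RNA helicase gene Dhx15, had folds of 6.26, 8.04 and 6.31, beside a Dhx15 peak in all 6 lists. 3000002C10Rik (chr9:109829980-109831235, minus strand), 47 bases from the nucleoside diphosphate kinase family gene Nme6, had folds of 9.80, 10.5 and 9.37, with no Nme6 peak in any list. The region called in control alone was AK020767 (chr1:186749396-186749773), 38 bases from Rrp15, a gene of ribosome assembly. Its folds were high, at 39.3 (control A), 89.6 (control B) and 64.6 (control C), while Rrp15 had 2 mRNA peaks in each control and 3 in each H/R list. Over the 35 regions of H/R alone, the partner had an mRNA peak in all 6 lists for 16 and in none for 7, and in 1 case it too was called in the 3 H/R lists and no control list. Those 16 of 35 compare with 39 of 79 for regions in all 6 lists and 257 of 711 for all members. The 7 of 35 with no partner peak compare with 18 of 79 and 159 of 711 (22.4%). The 1 of 35 compares with 1 of 79 and 21 of 711 (2.95%). These last 2 counts were thus near the shares over all members.

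The 8 antisense regions with the highest lowest p score over all 6 lists come next. Gm12992 (chr4:131899772-131902022, minus strand), opposite the splicing factor gene Srsf4, had folds of 140, 108 and 81.9 in control and 64.8, 66.2 and 78.6 in H/R. DQ072386 (chr4:3973201-3974047), opposite the predicted gene Gm11808, had folds from 31.7 in H/R C to 157 in control A. Gm15522 (chr5:34651861-34652477), opposite Nop14, a gene of small ribosomal subunit assembly, ranged from 35.7 in H/R C to 78.5 in control B, and AK048571 (chr4:83464366-83465714), opposite the chromatin-binding Psip1, from 25.9 to 71.6. AK154190 (chr9:21230742-21232336), opposite Keap1, the adaptor that marks the oxidative stress factor NRF2 for degradation, had folds of 57.8, 57.0 and 71.9 in control and 24.2, 37.9 and 30.8 in H/R. Keap1 had 1 or 2 mRNA peaks in each list.

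2210015D19Rik (chr11:5780206-5781876), which starts 221 bases inside Urgcp and whose DRACH-rich window is given above, had folds of 129, 215 and 154 in control and 124, 68.6 and 94.2 in H/R. Tpr (chr1:150438932-150439276), opposite Prg4, which encodes lubricin, is a transcript of a nuclear pore gene, and its peak also lay on a coding exon of its own strand. Its folds ran from 21.8 to 83.1. Hypk (chr2:121456693-121457701), likewise a transcript of a coding gene, opposite Serinc4, overlapped between groups, with 106, 92.8 and 70.6 in control and 65.9, 118 and 97.3 in H/R. Neither Prg4 nor Serinc4 had an mRNA peak in any list. The Hypk region overlapped a Serinc4 exon, where a peak can stand in the lncRNA or the mRNA list but not in both.

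Bidirectional regions that led the ranking in all 6 lists were Ppp4r1l-ps beside Rab22a (chr2:173585057-173587115, minus strand), 5830417I10Rik beside Syt11 (chr3:88816010-88817765), BC099561 beside Ubn2 (chr6:38433038-38433783, minus strand) and 4732491K20Rik beside Map3k4 (chr17:12318853-12319172). Rab22a acts in endosome traffic, Syt11 in vesicle traffic, Ubn2 in histone deposition and Map3k4 in stress kinase signalling. Folds of Ppp4r1l-ps were 50.4, 109 and 88.8 in control and 37.8, 34.4 and 25.2 in H/R, without overlap, whereas those of BC099561 overlapped, with 81.3, 127 and 107 against 89.1, 69.3 and 79.2.

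**Figure D4:**
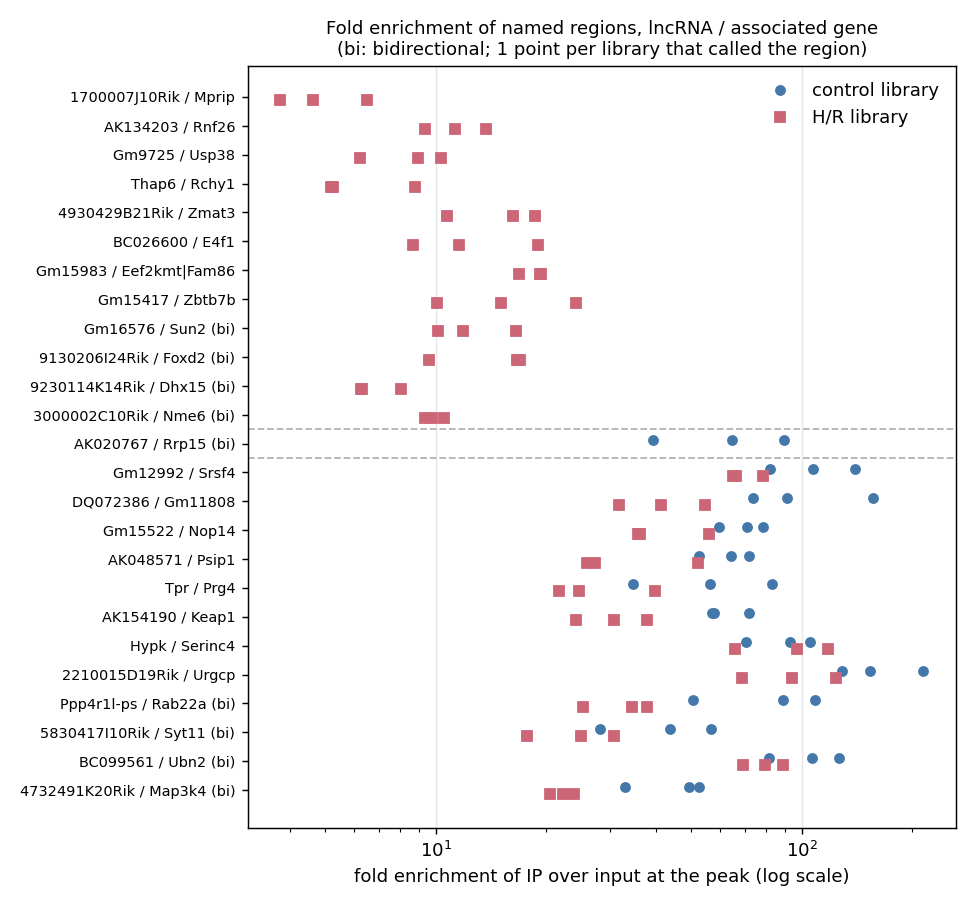
Fold enrichment of immunoprecipitate over input (horizontal axis, log scale) for the named regions, each labelled as lncRNA and partner, with 1 point for each library that called it, blue circles for control and red squares for H/R. Dashed lines separate the regions called in H/R alone, with folds from 3.76 to 24.2, the region called in control alone, with folds from 39.3 to 89.6, and those called in all 6 libraries.

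Over the 79 regions called in all 6 lists, the control mean exceeded the H/R mean in 75, and in 45 every control fold was above every H/R fold. The same pattern was common in lncRNA regions at large. Of their 620 regions in all 6 lists, members included, 295 (47.6%) had every control fold above every H/R fold. No such share was computed for the comparison of means. The medians over the 79 were 37.1, 45.8 and 38.4 in control and 19.7, 26.2 and 24.7 in H/R (difference -16.9, exact permutation p = 0.1). In 1 of the 79 every H/R fold was above every control fold, against 0.645% of all such lncRNA regions. It was Gm17769 (chr10:77418376-77420267), bidirectional with Adarb1, which encodes an adenosine deaminase that edits double-stranded RNA. Chosen after its values had been seen, it had folds of 24.1, 29.4 and 31.5 in control and 44.0, 57.0 and 59.5 in H/R, and Adarb1 had 1 mRNA peak in each control list and 2 to 4 in each H/R list. These folds are the highest of each library, and a further peak in the Gm17769 region had a fold of 4.43.

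Of the 41 patterning transcription factor genes listed, 4 were partners of a member, with 7 regions, of which 1 was called in H/R alone and 0 in all 6 lists, beside 4.92% and 11.1% of the 711 member regions and 5.69% and 14.0% of all lncRNA regions. With so few regions per list, counts of 0 or 1 in this and the other gene lists cannot be told from those shares. That region belonged to Foxd2, a forkhead factor gene with 2 bidirectional lncRNAs. 9130206I24Rik (chr4:114909257-114909658) had folds of 9.57, 17.0 and 16.7 in the H/R lists and no control peak. Foxd2os had a region at chr4:114912170-114913874 with folds of 33.2, 19.5 and 39.6 in H/R and 19.8 in control A, and one at chr4:114920440-114921118 with folds of 9.44, 13.5 and 5.33 in H/R, 16.7 in control A and 16.4 in control C. Foxd2 had 1 mRNA peak, in H/R C. Emx2os, antisense to the forebrain factor gene Emx2, had 1 region in H/R C, with a fold of 4.77, and another in H/R A, with a fold of 7.55, while Emx2 had 2 or 3 mRNA peaks in every list. Vax2os had 1 region, in H/R C at a fold of 4.77, and 1700109F18Rik, opposite Hoxd3, had 1 in H/R A at a fold of 7.31. The fold of 4.77 in H/R C was shared by Emx2os, Vax2os and, below, 2010015M23Rik. Their p scores there were low, at 79.99, 75.07 and 56.61, with 50.02 the lowest of any lncRNA peak. Msx1os (chr5:37820564-37821973), antisense to the homeobox gene Msx1, which is outside the list and was chosen after its values had been seen, was called in all 6 libraries with folds of 58.4, 83.6 and 36.7 in control and 22.0, 31.97 and 13.6 in H/R. Msx1 had no mRNA peak in any list. The Msx1os region overlapped an Msx1 exon, however, where a peak can stand in the lncRNA or the mRNA list but not in both.

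Of 32 hypoxia and stress genes 3 were partners, with 4 regions, 0 of them called in H/R alone and 1, AK154190 opposite Keap1, in all 6 lists. NRF2 is encoded by Nfe2l2, and its bidirectional lncRNA E030042O20Rik had a region (chr2:75704770-75705494) with a fold of 113 in control B and 54.1 in H/R C and a second in H/R C alone at a fold of 9.20. E230016M11Rik, opposite the DNA damage gene Gadd45a, was called in H/R C at a fold of 8.35. Of 38 chromatin genes 5 were partners, with 6 regions, 0 of them called in H/R alone. Gm26625, opposite the histone methyltransferase gene Ezh2, had a region in control A, H/R A and H/R C with folds of 13.1, 8.59 and 4.88 and another in H/R B at a fold of 8.18, and AI480526 beside Setd1b had folds of 33.0, 33.0 and 7.90 in control A, control C and H/R A. Of 40 cell division and DNA repair genes 1 was a partner, Pcna, whose neighbour AV099323 was called in H/R C at a fold of 10.9. Of 30 genes of the RNA and m6A machinery 1 was a partner, Srsf1, beside 2010015M23Rik, called in H/R C at a fold of 4.77, and no m6A writer, eraser or reader of the list had a member region.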

How the data were processed

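Per the labels and the methods, the adapters were removed by cutadapt (version 1.9.3), HISAT2 (version 2.0.4) placed reads on mm10, and MACS found peaks in each library under a p cutoff, which the authors then assigned to exons of mRNAs, lncRNAs or circRNAs. The deposited lncRNA lists gave each peak a score of -10 times log10 p, a fold enrichment, which is a ratio of immunoprecipitate to input, and a false discovery rate in percent. Circular RNA lists were not used here. Members were the peaks classed as natural antisense or bidirectional, and the members and lists were chosen with earlier results of these data known. Regions were joined over the 6 lists at 1 base of overlap. Where a library had several peaks in a region, the highest fold is given. Named regions were those ranked highest by their lowest p score in each presence class, 8 antisense regions for H/R alone and for all 6 lists, 5 bidirectional regions for all 6 lists and 5 for H/R alone and control alone ranked together, and lncRNAs named for a partner in a gene list; others are marked in the text. A region that the rule names is not reported here. Groups were compared with exact permutation tests of 3 against 3 libraries, and kinds of peak with exact sign-flip tests over 6 libraries, two-sided, with Benjamini-Hochberg adjustment, checked on simulated data. Comparisons of the antisense exon split, partner genes, GC content, 5′ ends and bidirectional DRACH were added after the files were seen. Exons came from GENCODE M21 and RefSeq models on GRCm38, the same coordinates as mm10, and sequence from RefSeq. Tools were Python 3.11.15, NumPy 2.4.6, SciPy 1.17.1 and pandas 2.3.3. Alternatives were stricter peaks, equal list lengths, other overlaps and leaving out each library.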

Additional observations from a re-analysis of the deposited data

How the results depend on the processing

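In lists of equal length the difference between H/R and control turned for member peaks (-2.33), natural antisense peaks (-2.33), the members' share of lncRNA peaks (-0.223 points), the share with a called partner (-1.77 points) and the shares of antisense peaks over a partner exon (0.319 points) and free of coding exons (-2.32 points). At a fold enrichment of at least 10 the share with a called partner also turned (-5.71 points). None of these was past the threshold in either setting. Regions in H/R alone, 35 as reported, numbered 11 at a fold of at least 10, 3 in lists of equal length, 18 among peaks with no coding exon and between 40 and 89 when 1 library was left out. Regions in control alone, 1 as reported, numbered 4 at that fold, 5 in lists of equal length and 1 to 6 with 1 library left out. Regions in all 6 lists numbered 20 among peaks with no coding exon.

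Sign-flip tests lost their call with 1 library left out, since 5 libraries allow no p below 0.0625, but no direction turned. Their values then ran from 0.75 to 0.98 per kb for DRACH in natural antisense peaks and from 4.67 to 5.13 in bidirectional peaks, from 1.75 to 2.56 for the fold and from 213.8 to 244 bases for the length of members against other peaks. They ran from -9.31 to -7.40 points for a called partner of members against other peaks and from 12.9 to 16.3 points for bidirectional against antisense peaks. For GC content they ran from 2.34 to 2.71 points and for the 5′ end from 6.87 to 10.2 points. The DRACH difference of natural antisense peaks was past the threshold as reported but not in lists of equal length (0.48 per kb, exact p = 0.0938), among peaks not also exon sense-overlapping (0.81, exact p = 0.0625) or, after adjustment, among those with no coding exon (5.02, exact p = 0.03125, adjusted p = 0.0938 over 3 comparisons). That last setting held all members to peaks with no coding exon, so the fold and length comparisons in the adjustment changed too. At a fold of at least 10 the call was also lost for the fold of members against other peaks (1.83, exact p = 0.0938) and for partners of bidirectional against antisense peaks (14.8 points, exact p = 0.0625). The cause was not tested. The filters on coding exons and on sense overlap were chosen after seeing the data. No paired analysis was possible because the list letters carry no replicate number.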
